A study of Canis lupus familiaris with 6 samples.

Results

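Contractile genes of smooth muscle and myofibroblasts, 9 in number, were followed in drilled holes of the dog mandible: TAGLN, ACTA2, ACTG2, MYH11, CNN1, MYL9, TPM2, DES and PDGFRB. The genes were chosen with earlier results of these data known. Their probe sets were then taken by annotation alone, as every probe set assigned to 1 of these 9 symbols and to no other gene. That gave 22 of the 42860 probe sets in the deposited table, 14 named Cfa and 8 named CfaAffx, with at least 1 for each gene. The table names 15115 genes through probe sets of 1 gene. Of the 22, 17 passed a filter on low values (a mean log2 level at or above the 40th percentile), 11 Cfa and 6 CfaAffx, and all 9 genes kept at least 1 probe set.

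The specimens were bone cylinders, 4.5 mm wide and 8 mm long, from the mandibles of beagle dogs aged 9 years. Premolars had been extracted 3 months before the holes were drilled. At 4, 7 and 14 days, sites implanted with beta-TCP (beta-tricalcium phosphate, a ceramic that fills bone defects and is resorbed) and control sites drilled without it gave 1 Affymetrix canine array each, 6 arrays in all. The labels do not say how many dogs there were, which specimens shared a dog or whether specimens were pooled.

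Smooth muscle cells, pericytes and myofibroblasts pull on their surroundings by sliding actin over myosin. Smooth muscle alpha and gamma actin (ACTA2, ACTG2), smooth muscle myosin heavy chain (MYH11), the regulatory myosin light chain MYL9 and tropomyosin TPM2 form or regulate the filaments. Transgelin (TAGLN) and calponin (CNN1) bind actin, desmin (DES) is the intermediate filament of muscle cells, and PDGFRB is the receptor through which PDGF recruits pericytes and fibroblasts. In wounds, fibroblasts that take on ACTA2 stress fibres are known as myofibroblasts and contract granulation tissue. Vessel walls hold smooth muscle and pericytes that use the same genes.

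Levels are given as multiples of the array's median over all probe sets, and differences as differences of log2(level + 1), beta-TCP minus control unless stated. On that scale 2-fold means a difference of 1, which understates the change of probe sets read below the median. Because 1 array stands for each group, a difference on a single day has no error and no test. In bulk specimens, more cells of a type and more RNA per cell cannot be told apart. Cfa and CfaAffx probe sets are given apart. By Affymetrix naming, sets ending in _s_at or _x_at hold probes that also match other transcripts, which matters for the closely related actins, myosins and tropomyosins.

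The array labelled beta-TCP day 14 stood apart, its Spearman correlation with each remaining array being 0.723 to 0.779, where pairs of those 5 gave 0.832 to 0.905. Over all probe sets tested, its median deviation from the mean of the arrays was -0.33 on CfaAffx and -0.01 on Cfa probe sets. The day 14 values were also deposited on another scale. Skeletal muscle markers had a summed level of 21.8 to 30.6 on the beta-TCP arrays and 24.0 to 31.2 on the control arrays over 20 of 22 genes measured. Of these, 9 lay at or below the median on every array, among them the myosin genes MYH1, MYH4 and MYH7. By array, 11 of the 20 lay at or below the median on control day 4, and 13 to 15 on the other 5. The remaining genes read above it there. The sum over 7 epithelial markers was 211 on the control day 4 array and 14.7 to 65.6 on the other 5. Endothelial markers (10 genes) summed to 168, 274 and 352 at days 4, 7 and 14 with beta-TCP and to 76.7, 380 and 270 in controls, and 7 leukocyte markers to 220, 224 and 247 with beta-TCP and to 366, 464 and 129 in controls. Such sums weigh high-reading genes most. The leukocyte medians for day 14 minus day 4 were -0.72 on Cfa and -1.63 on CfaAffx with beta-TCP (all, 0.05 and -0.42). In controls they were -0.90 and -1.53 (all, 0.30 and 0.03). For day 7 minus day 4 in controls they were 0.20 and -1.05 (all, 0.31 and 0.05). Bone markers (7 genes) summed to 550, 895 and 233 with beta-TCP and to 438, 724 and 221 in controls. At day 7, 3 of 5 Cfa and 3 of 6 CfaAffx bone probe sets were at least 2-fold higher with beta-TCP and 0 lower. Of all probe sets, 3.33% and 2.98% were higher and 3.44% and 2.49% lower. The bone medians were 1.83 and 1.16, beside -0.07 and -0.01 for all. The part of these cell types in the differences below was not tested.

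Markers held to define differentiated smooth muscle were mixed, some reading near or below the array median and others above it. LMOD1, a leiomodin of smooth muscle, read 0.0700 to 0.129 with beta-TCP and 0.0416 to 0.0917 in controls, and MYOCD, the coactivator that drives the programme, read 0.0989 to 0.952 with beta-TCP and 0.0930 to 0.458 in controls. Of 4 MYH11 probe sets, 3 failed the filter, with levels of 0.0142 to 0.572 over all 6 arrays. The remaining MYH11 probe set read 2.02 to 6.35 with beta-TCP and 0.775 to 2.67 in controls. Smoothelin (SMTN) was measured on its highest-reading Cfa probe set at 2.80, 6.75 and 5.98 with beta-TCP and 2.08, 5.63 and 5.45 in controls at days 4, 7 and 14. ACTG2 on its A1_s_at probe set read 8.46 to 52.8 with beta-TCP and 7.31 to 43.7 in controls. DES on its Cfa probe set reached 5.09 and 5.78. CNN1 on its Cfa probe set read 0.533 to 1.79 with beta-TCP and 0.511 to 2.07 in controls. The other SMTN probe set tested, also Cfa, read 1.23, 4.86 and 1.13 with beta-TCP and 0.135, 2.76 and 2.56 in controls. A Cfa probe set of SMTN under the filter read 0.113 to 1.01 with beta-TCP and 0.330 to 0.892 in controls. Other probe sets of MYH11, ACTG2, DES and CNN1 are given below. Levels of different probe sets are not set against one another here, since each probe set has its own response.

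TAGLN is among the earliest genes switched on when a cell takes on a contractile phenotype. On its Cfa probe set it read 49.2, 113 and 291 times the median at days 4, 7 and 14 with beta-TCP, and 21.8, 68.7 and 342 times in controls. Both treatments climbed at each step, with beta-TCP above control at days 4 and 7 (differences of 1.14 and 0.72) and close to it at day 14 (-0.23, but 0.14 with quantile normalization and 0.20 with 90th percentile scaling). The CfaAffx probe sets gave another course. The one ending in S1_at read 12.8, 16.4 and 8.34 with beta-TCP and 4.59, 12.7 and 42.9 in controls, and the one ending in S1_s_at read 6.86, 6.70 and 2.61 with beta-TCP and 2.84, 3.81 and 13.6 in controls. Their differences were 1.30 and 1.03 at day 4, 0.34 and 0.68 at day 7, and -2.23 and -2.01 at day 14. All 3 probe sets thus put beta-TCP higher at days 4 and 7, and at day 14 the CfaAffx readings with beta-TCP were low where the Cfa reading was not.

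ACTA2, the actin by which myofibroblasts are recognised, was measured alone on 1 CfaAffx probe set. It read 182, 300 and 674 times the median at days 4, 7 and 14 with beta-TCP, and 73.5, 269 and 347 times in controls. Beta-TCP was higher on all 3 days, by 1.30, 0.16 and 0.96. At day 14 it stood on the higher side on an array where 32.6% of all CfaAffx probe sets did.

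ACTG2 encodes the gamma actin of visceral smooth muscle, whose coding sequence is nearly that of ACTA2, so signal from one may be read on a probe set of the other. Its Cfa probe set ending in A1_s_at read 8.46, 22.5 and 52.8 with beta-TCP and 8.37, 7.31 and 43.7 in controls, so beta-TCP was level at day 4 (0.01, down to -0.23 under other scalings), higher at day 7 (1.50) and close at day 14 (0.27). The Cfa probe set ending in S1_s_at read 3.80, 6.68 and 3.08 with beta-TCP and 2.70, 2.10 and 9.06 in controls. It shared the higher reading at day 7 (1.31) and differed by -1.30 at day 14. The third probe set, under the filter, stayed at 0.0420 to 0.253 on all arrays.

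MYH11 was readable on 1 probe set, at 2.02, 6.35 and 6.0 with beta-TCP and 2.23, 2.67 and 0.775 in controls. The treatments were close at day 4 (-0.10) and beta-TCP was higher at days 7 and 14 (1.0 and 1.98). The day 14 value rests on a control reading below the array median. The other 3 MYH11 probe sets, all under the filter, differed by -0.50 to 0.07 at day 14.

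The light chain MYL9 read 21.6, 21.0 and 35.7 with beta-TCP and 10.8, 19.8 and 37.1 in controls. The difference was 0.93 at day 4, 0.08 at day 7 and -0.05 at day 14, the last turning to as much as 0.37 under other scalings.

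Of the 4 probe sets of TPM2, which steadies actin filaments, 2 read high. The high Cfa probe set gave 54.5, 61.6 and 64.3 with beta-TCP and 17.9, 51.7 and 132 in controls, and the CfaAffx probe set gave 62.1, 59.7 and 33.3 with beta-TCP and 27.2, 39.2 and 89.4 in controls. Both had beta-TCP higher at day 4 (1.56 and 1.16) and lower at day 14 (-1.02 and -1.40). The beta-TCP readings varied little between days 4 and 7, while the control readings climbed at each step. The other 2, both Cfa, lay at 0.0532 to 2.42 with beta-TCP and 0.437 to 2.28 in controls, and differed by less than 2-fold on each day. With a pseudocount of 0.25 their day 7 differences were 1.16 and -1.51.

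CNN1 and DES, both markers of differentiated muscle cells, showed no 2-fold difference on any day at a pseudocount of 1. CNN1 read on its tested Cfa probe set 0.744, 0.533 and 1.79 with beta-TCP and 1.48, 0.511 and 2.07 in controls. Its CfaAffx probe set failed the filter, with levels of 0.161 to 0.950. DES read on its Cfa probe set 1.86, 5.09 and 3.37 with beta-TCP and 2.19, 5.78 and 4.91 in controls, and its CfaAffx probe set read 0.266, 2.35 and 0.194 with beta-TCP and 0.0694, 2.20 and 1.23 in controls. At day 14 the CfaAffx probe set of DES differed by -0.90, and by -1.73 with a pseudocount of 0.25. Day 7 was the highest of the 3 days for DES on both probe sets and in both treatments.

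PDGFRB also peaked at day 7 on its Cfa probe set, at 6.22, 13.0 and 4.35 with beta-TCP and 1.56, 10.1 and 5.43 in controls. Beta-TCP was higher at day 4 (1.50) and the treatments were closer at days 7 and 14 (0.33 and -0.26, the day 14 value turning to 0.06 and 0.10 with quantile normalization and 90th percentile scaling). The CfaAffx probe set read 1.10, 1.81 and 1.84 with beta-TCP and 0.703, 2.43 and 1.48 in controls, with a difference of only 0.30 at day 4.

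**Figure D1:**
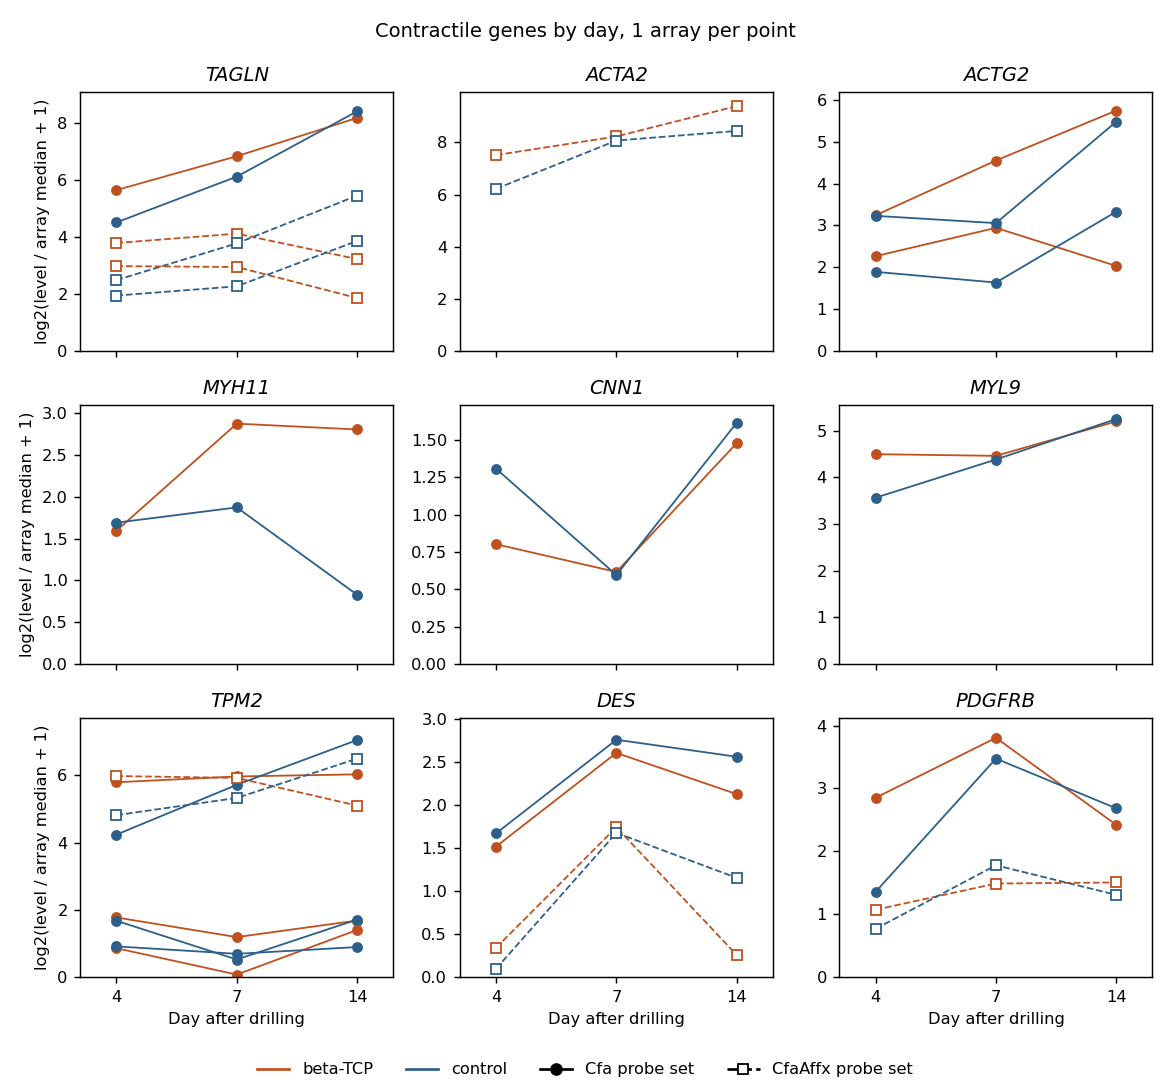
Level of each contractile gene, as log2(level / array median + 1), against day after drilling (evenly spaced, not to scale), with beta-TCP in orange and control in blue and 1 array per point; filled circles are Cfa and open squares CfaAffx probe sets that passed the filter. On the CfaAffx probe sets of TAGLN and TPM2 the beta-TCP line lies above the control line at day 4 and below it at day 14, while ACTA2 keeps beta-TCP on top.

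At day 4 the contractile genes were thus higher with beta-TCP on several probe sets. Of the 11 Cfa members 3 were at least 2-fold higher and 0 lower, where 4.63% of all Cfa probe sets were higher and 2.75% lower. Of the 6 CfaAffx members 4 were at least 2-fold higher and 0 lower, where 3.94% were higher and 3.21% lower. The members' median was 0.10 on Cfa and 1.10 on CfaAffx probe sets, beside 0.17 and 0.12 for all probe sets. The 7 came from 4 genes, TAGLN (3 probe sets), TPM2 (2), ACTA2 and PDGFRB, while ACTG2, MYH11, CNN1 and DES gave -0.51 to 0.37. With a pseudocount of 4, or with scaling to the 90th percentile, the count of 7 became 4. On the same day the epithelial marker sum was 18.3 with beta-TCP and 211 in the control, and the endothelial sum 168 and 76.7.

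At day 7 another group of genes stood out. Of the 11 Cfa members 3 were at least 2-fold higher, both readable ACTG2 probe sets and MYH11, and 0 lower, where 3.33% of all Cfa probe sets were higher and 3.44% lower. None of the 6 CfaAffx members differed 2-fold in either direction, where 2.98% were higher and 2.49% lower. The members' median was 0.33 on Cfa and 0.25 on CfaAffx probe sets, beside -0.07 and -0.01 for all. With a pseudocount of 4 the count of 3 became 1.

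At day 14 the members split. Of the 11 Cfa members 1 was at least 2-fold higher (MYH11) and 2 lower (the S1_s_at probe set of ACTG2 and the high one of TPM2), where 4.40% of all Cfa probe sets were higher and 12.5% lower. Of the 6 CfaAffx members 0 were higher and 3 lower (both of TAGLN and that of TPM2), where 3.29% were higher and 20.6% lower. The members' median was -0.14 on Cfa and -1.15 on CfaAffx probe sets, beside -0.13 and -0.33 for all. The count of 5 lower members became 2 with quantile normalization or 90th percentile scaling and 3 with a pseudocount of 4, and was 6 with a pseudocount of 0.25. All 5 lower differences use the array that stood apart, and its part in them was not tested. The high Cfa probe set of TPM2 read 64.3 on that array (61.6 with beta-TCP at day 7) and 132 in the control (51.7 at day 7). The S1_s_at probe set of ACTG2 read 3.08 (6.68 at day 7) and 9.06 (2.10 at day 7).

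**Figure D2:**
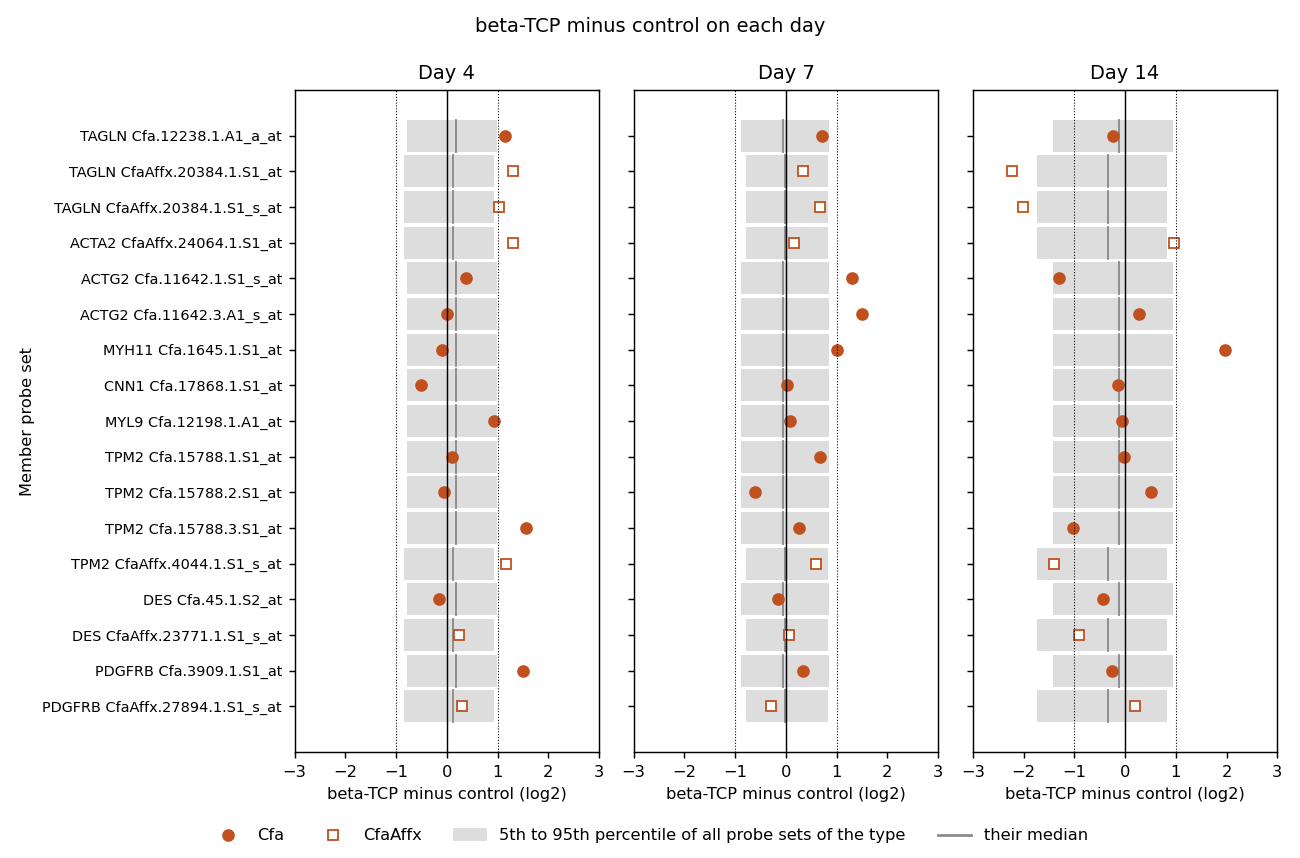
Beta-TCP minus control on the log2 scale for the 17 member probe sets that passed the filter, at days 4, 7 and 14; circles are Cfa and squares CfaAffx probe sets, grey bars span the 5th to 95th percentile of all probe sets of the same type, grey ticks mark their median and dotted lines mark 2-fold. The day 4 points outside the bar belong to TAGLN, ACTA2, TPM2 and PDGFRB, those at day 7 to ACTG2 and MYH11, and at day 14 TAGLN lies below the bar and MYH11 and ACTA2 above it.

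No member passed for the treatment effect shared by the 3 days, taken from a limma fit with day and treatment as additive terms. Of all 25608 probe sets 0 passed an adjusted p of 0.05 (0%), with 1057 at an unadjusted p under 0.05. Of the 17 members 2 were among these, ACTA2 at 0.80 ± 0.33 and MYH11 at 0.96 ± 0.41 (SE), each with an adjusted p of 1.0 (limma). ACTA2 was higher with beta-TCP on 3 of 3 days and MYH11 on 2 of 3. The other 15 averages lay between -0.25 and 0.59. Without the day 14 pair the averages of all 3 TAGLN probe sets were 0.82 to 0.93, with adjusted p of 0.252 to 0.376, and the CfaAffx averages had been -0.20 and -0.10 with day 14 included.

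TAGLN, ACTG2 and ACTA2 rose between days 4 and 14 in the same fit, each on 1 probe set. TAGLN rose by 3.22 ± 0.42 (SE) on its Cfa probe set (adjusted p = 0.0111, limma), ACTG2 by 2.38 ± 0.44 on its A1_s_at probe set (adjusted p = 0.0291, limma) and ACTA2 by 2.05 ± 0.40 (adjusted p = 0.0352, limma). Of all 25608 probe sets 0.773% passed as higher and 2.50% as lower, against 3 and 0 of the 17 members. Both treatments went the same way for all 3, with 2.54 for TAGLN, 2.51 for ACTG2 and 1.88 for ACTA2 in beta-TCP sites and 3.91, 2.25 and 2.22 in control sites.

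Other probe sets of TAGLN and ACTG2 did not pass. The CfaAffx probe sets of TAGLN gave 1.20 ± 0.72 and 0.40 ± 0.67 (adjusted p = 0.368 and 0.771, limma), with -0.56 and -1.12 in beta-TCP sites and 2.97 and 1.92 in controls. The S1_s_at probe set of ACTG2 gave 0.60 ± 0.57, with -0.23 in beta-TCP sites and 1.44 in controls. MYL9 gave 1.19 ± 0.39 (adjusted p = 0.131, limma), and the high Cfa probe set of TPM2 1.52 ± 0.56 (adjusted p = 0.167, limma). The other 9 members gave -0.03 to 0.75. Because day 14 was deposited on another scale than day 4, day and processing cannot be told apart in these differences. All 3 calls were lost with a pseudocount of 4 and with no filter on low values, where the adjusted p were 0.0582 and 0.0996 for TAGLN, 0.0780 and 0.127 for ACTG2, and 0.0720 and 0.122 for ACTA2 (limma). With a pseudocount of 0.25 only TAGLN passed.

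Day 14 was also set against day 4 within each treatment, at 2-fold. On the beta-TCP arrays 3 of 11 Cfa members were at least 2-fold higher and 0 lower (all Cfa probe sets, 11.6% and 15.2%), and 1 of 6 CfaAffx members was higher and 1 lower (4.83% and 28.4%). The members' medians were 0.61 and -0.33, beside 0.05 and -0.42 for all. On the control arrays 6 of 11 Cfa members were higher and 0 lower (20.4% and 8.29%), and 5 of 6 CfaAffx members were higher and 0 lower (8.79% and 10.6%). There the medians were 1.33 and 1.80, beside 0.30 and 0.03 for all. Since the beta-TCP minus control differences use the same arrays, these counts repeat the higher readings with beta-TCP at day 4 and the lower ones at day 14 and are not a separate result.

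**Figure D3:**
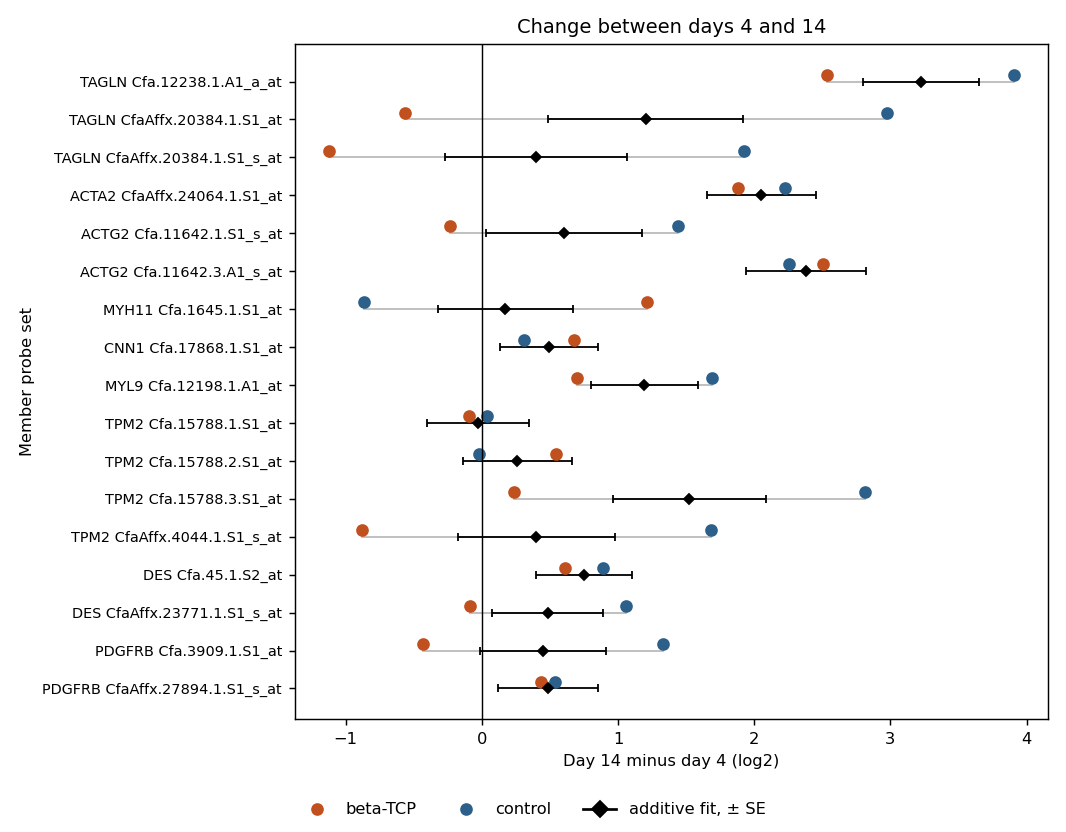
Day 14 minus day 4 on the log2 scale for the 17 member probe sets that passed the filter, with beta-TCP arrays in orange, control arrays in blue and the additive fit with its standard error as black diamonds. TAGLN on its Cfa probe set, ACTA2 and 1 probe set of ACTG2 lie above 1.8 in both treatments, while the treatments fall on opposite sides of 0 for both CfaAffx probe sets of TAGLN and for MYH11, among others.

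For TAGLN on its Cfa probe set and for ACTA2, part of the climb to day 14 was already present at day 7. Both day 7 arrays were deposited on the same scale as at day 4. ACTG2 on its A1_s_at probe set went from 8.46 to 22.5 with beta-TCP and from 8.37 to 7.31 in controls. In the fit to all 6 arrays 0 of 25608 probe sets passed for day 7 minus day 4 (0%), with 2814 at an unadjusted p under 0.05, 6 of them members (limma). Fitted without the day 14 pair, with 1 residual degree of freedom, 5 members passed as higher, where 5.05% of all probe sets did. These were DES on both probe sets (1.49 ± 0.31 on CfaAffx, adjusted p = 0.00847, and 1.09 ± 0.31 on Cfa, adjusted p = 0.0420), PDGFRB (1.54 ± 0.34, adjusted p = 0.0123), TAGLN (1.40 ± 0.31, adjusted p = 0.0127) and ACTA2 (1.29 ± 0.34, adjusted p = 0.0308), all by limma. For PDGFRB and TAGLN this was the Cfa probe set. Without the day 14 pair the moderation added 15.1 degrees of freedom drawn from all probe sets, against 6.56 in the fit to all 6 arrays. The error behind these calls thus came mostly from other probe sets. All 5 were higher at day 7 in both treatments, which is not separate support, since the calls rest on the same arrays. DES and PDGFRB did not pass for day 14 minus day 4.

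In beta-TCP sites 4 of 11 Cfa members were at least 2-fold higher at day 7 than at day 4 and 0 lower (all Cfa probe sets, 6.06% and 2.15%), and 1 of 6 CfaAffx members was higher and 0 lower (3.16% and 3.30%). In control sites 4 of 11 Cfa members were higher and 1 lower (18.1% and 5.12%), and 4 of 6 CfaAffx members were higher and 0 lower (8.48% and 6.32%). PDGFRB gave 0.95 in beta-TCP sites and 2.12 in control sites, ACTA2 0.72 and 1.86, and TAGLN 1.19 and 1.61 on its Cfa probe set. The endothelial marker sum over the same interval was 168 and 274 in beta-TCP sites and 76.7 and 380 in control sites at days 4 and 7.

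Between days 7 and 14 no member passed, where 3 of 25608 probe sets did (0.0117%, limma). DES and PDGFRB on its Cfa probe set lay lower at day 14 (DES -1.01 ± 0.41 on CfaAffx and PDGFRB -1.09 ± 0.46), and ACTG2 (1.81 ± 0.44 on its A1_s_at probe set) and TAGLN (1.82 ± 0.42 on Cfa) higher, with adjusted p of 0.465, 0.478 and 0.285 for the DES, PDGFRB and ACTG2 probe sets (limma). By the F test over the 3 days 1 member passed, TAGLN on its Cfa probe set (adjusted p = 0.0305, limma), where 1.13% of all probe sets did.

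Other genes of the contractile programme were read from a list of 27 genes, with 18 represented among the probe sets tested (47 probe sets). None of the 47 passed for the average beta-TCP effect or for any pair of days (limma). At day 4, 5 of 30 Cfa probe sets were at least 2-fold higher and 1 lower, with a median of 0.47, where 4.63% of all Cfa probe sets were higher and 2.75% lower with a median of 0.17. On CfaAffx 3 of 17 were higher and 0 lower, with a median of 0.46, where 3.94% of all were higher and 3.21% lower with a median of 0.12. At day 7, 3 of 30 Cfa probe sets were higher and 0 lower (all, 3.33% and 3.44%). On CfaAffx 4 of 17 were higher and 0 lower (all, 2.98% and 2.49%). The day 7 medians were 0.08 and 0.34, beside -0.07 and -0.01 for all. At day 14 the counts were 1 higher and 8 lower on Cfa (all, 4.40% and 12.5%), and 0 higher and 7 lower on CfaAffx (all, 3.29% and 20.6%), with medians of -0.43 and -0.50 beside -0.13 and -0.33 for all. The largest differences were all at day 14 on CfaAffx probe sets. They were caldesmon (CALD1, -3.25), which restrains actomyosin, tropomyosin TPM1 (-2.53), nexilin (NEXN, -2.43), an actin-binding protein, and CNN2 (-2.43), a relative of CNN1. The other probe sets tested gave -0.18 to 0.31 for TPM1, -0.78 to -0.58 for NEXN, and -1.35 and 0.40 for CNN2.

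The CALD1 probe sets differed among themselves at day 14. Its CfaAffx probe set read 84.1, 111 and 6.87 with beta-TCP and 27.2, 43.4 and 74.1 in controls, and the highest Cfa probe set read 343, 422 and 262 with beta-TCP and 151, 282 and 608 in controls. Its other 2 probe sets tested, both Cfa, differed by -0.73 and 0.21 at day 14. MYLK, the kinase that phosphorylates myosin light chain to start contraction, differed by 1.27, -0.17 and -1.08 on its Cfa probe set at days 4, 7 and 14, with levels of 12, 17.0 and 6.61 with beta-TCP and 4.39, 19.3 and 15.1 in controls. The transcription factor SRF, which binds the promoters of these genes with MYOCD, differed by -0.37 to 0.79 on both probe sets tested, so no 2-fold difference was seen.

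Pericyte and mural cell genes, 12 of 15 tested on 22 probe sets, lay on the higher side at day 4 with medians of 0.48 on Cfa and 0.63 on CfaAffx probe sets, beside 0.17 and 0.12 for all. There 4 of 12 Cfa probe sets were at least 2-fold higher and 0 lower (all, 4.63% and 2.75%), and 2 of 10 CfaAffx probe sets higher and 1 lower (all, 3.94% and 3.21%). RGS5, a regulator of G protein signalling used as a pericyte marker, read 2.89 with beta-TCP and 0.168 in the control (1.73). The adhesion molecule MCAM differed by 1.44, 1.27 and 0.35 on its Cfa and by 0.86 and -0.25 on its CfaAffx probe sets. The transcription factor EBF1 differed by 1.21 on Cfa and by 1.25 and 0.69 on CfaAffx probe sets, while the Notch target HEYL gave -1.27. At day 7, 1 of 12 Cfa probe sets was higher and 0 lower (all, 3.33% and 3.44%). On CfaAffx 0 of 10 were higher and 1 lower (all, 2.98% and 2.49%). The day 7 medians were 0.09 and 0.29, beside -0.07 and -0.01 for all. At day 14 this list had medians of 0.10 and -0.00, beside -0.13 and -0.33 for all probe sets. None of its probe sets passed in the fit (limma).

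Myofibroblast matrix and TGF-beta pathway genes, 18 of 22 tested on 41 probe sets, had 8 of 25 Cfa probe sets at least 2-fold higher at day 4 and 0 lower (median 0.61), and 2 of 16 CfaAffx probe sets higher and 0 lower (median 0.22), where 4.63% and 3.94% of all probe sets of each type were higher and 2.75% and 3.21% lower. At day 7, 2 of 25 Cfa probe sets were higher and 0 lower (all, 3.33% and 3.44%). On CfaAffx 1 of 16 was higher and 0 lower (all, 2.98% and 2.49%). The day 7 medians were 0.01 and 0.07, beside -0.07 and -0.01 for all. At day 14, 2 of 25 Cfa probe sets were higher and 6 lower (all, 4.40% and 12.5%), and 0 of 16 CfaAffx probe sets higher and 7 lower (all, 3.29% and 20.6%), with medians of -0.35 and -0.49 beside -0.13 and -0.33 for all. The lysyl oxidase gene LOX (-2.81), the integrin gene ITGAV (-2.42) and CCN2, a TGF-beta target (-1.87), had the lowest differences, all on CfaAffx probe sets, and fibronectin (FN1) was higher by 2.08 on a Cfa probe set and by 0.42 to 1.30 on its other 3. On their Cfa probe sets ITGAV differed by -1.13 and CCN2 by -0.73, and a further CfaAffx probe set of ITGAV by -0.28. None of the 41 passed in the fit (limma).

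**Figure D4:**
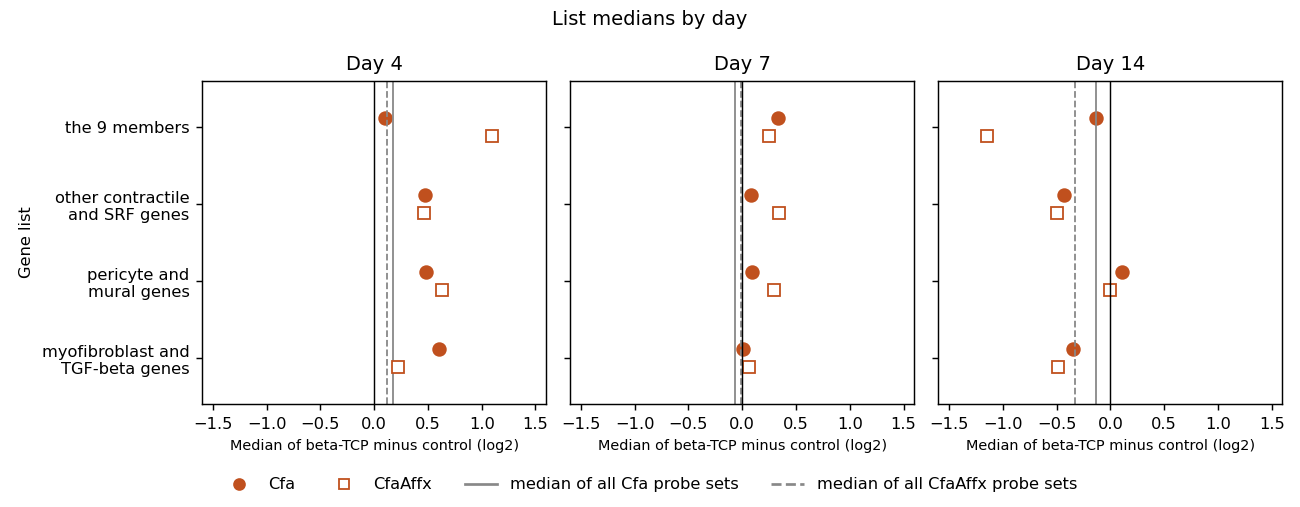
Median beta-TCP minus control difference (log2) of the 9 contractile genes and of 3 related gene lists at days 4, 7 and 14, with circles for Cfa and squares for CfaAffx probe sets and grey lines for the median of all probe sets tested of each type. At day 4 all medians but the members' Cfa median (0.10) lie to the right of both grey lines, and at day 14 the members' CfaAffx median lies furthest left (-1.15).

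The genes most like the members were sought by Pearson correlation over the 6 arrays with the members' mean profile, separately by probe set type. On Cfa probe sets they were DYNLRB2 (r = 0.996), COPZ2, SDC2, PEX7 and FXYD1 (r = 0.990) among 8386 candidates. The heparan sulphate proteoglycan gene SDC2 read 223, 382 and 505 with beta-TCP and 141, 267 and 530 in controls. On CfaAffx probe sets they were UBFD1 (r = 0.994), PCBD2, LOC606860, TUBGCP5 and ADI1 (r = 0.987) among 9866. These r are the highest among all candidates, and each rests on 6 arrays of which 2 at a time share a day.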

How the data were processed

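RNA was measured in 6 specimens on Affymetrix canine arrays, 1 for each of 2 treatments on 3 days. The deposited table holds 42860 probe sets. For days 4 and 7 the deposited values are a signal already divided by each array's median, with 0.01 as the smallest value. For day 14 the deposited values are an intensity that was not divided, with medians of 6.2 (beta-TCP) and 12 (control). The labels name no software or scaling.

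Each array was divided by its median, and log2(value + 1) was taken. Gene names came from the platform annotation, in which 29254 probe sets have 1 gene, 439 several and 13167 none. All 9 members matched a RefSeq gene by gene ID. Probe sets with a mean log2 under the 40th percentile (0.70) were left out, as were 180 in pairs ending _a_at and _at that share a name stem, which left 25608. limma 3.58.1 in R 4.3.3 fitted day and treatment additively, with 2 residual degrees of freedom, moderated standard errors, two-sided tests and Benjamini-Hochberg adjustment over the 25608, called at an adjusted p of 0.05. The days serve as repeats there for the treatment effect, and the 2 treatments do for differences between days. The error of each probe set is how its treatment difference varies between the days. The moderation adds 6.56 degrees of freedom drawn from all probe sets tested. With 1 array per group, the p-values do not measure the spread between specimens of a group. The fit was tested on simulated data. The number of arrays limits the precision.

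The members and lists were chosen with earlier results of these data known. Every member probe set was named. From each list at most 4 genes with the largest difference on a day were named, with MYLK, MYOCD and SRF. The alternatives were 2 other scalings, other pseudocounts (0.25 and 4), no filter, each probe set type alone, the pairs kept, each day left out and differences relative to the median of all probe sets. Sequences of the members were not used here.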

Additional observations from a re-analysis of the deposited data

Results flagged for a closer look

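Among the members, 5 probe sets had beta-TCP at least 2-fold above control on an earlier day and at least 2-fold below it at day 14. With 1 array per group, the difference between the days was not tested. The share of all probe sets with such a reversal was not counted, so the 5 cannot be called unusual. At day 14 alone, 12.5% of all Cfa and 20.6% of all CfaAffx probe sets were at least 2-fold lower with beta-TCP. For TAGLN, beta-TCP minus control was 1.30 at day 4 and -2.23 at day 14 on the CfaAffx probe set ending in S1_at, and 1.03 and -2.01 on the one ending in S1_s_at. For TPM2 it was 1.56 at day 4 and -1.02 at day 14 on the high Cfa probe set, and 1.16 and -1.40 on the CfaAffx probe set. For ACTG2 it was 1.31 at day 7 and -1.30 at day 14 on the Cfa probe set ending in S1_s_at. Not all of these stayed past 2-fold under the 5 alternatives for day differences (2 scalings, 2 pseudocounts and differences relative to the median of all), though none changed direction. TAGLN stayed past it in 4 (S1_at) and 1 (S1_s_at) of 5 at day 4 and in 5 of 5 on both at day 14. TPM2 stayed past it in 5 (Cfa) and 4 (CfaAffx) of 5 at day 4, and in 1 and 3 of 5 at day 14. ACTG2 did so in 4 of 5 at day 7 and in 2 of 5 at day 14. In all of them the day 14 difference uses the array that stood apart and the control array of that day. Between these arrays the median difference was -0.33 on CfaAffx and -0.13 on Cfa probe sets. On the high Cfa probe set of TPM2, day 14 read 64.3 with beta-TCP (61.6 at day 7) and 132 in the control (51.7 at day 7). The S1_s_at probe set of ACTG2 read 3.08 (6.68 at day 7) and 9.06 (2.10 at day 7). The part of each array was not tested. The third TAGLN probe set (Cfa, -0.23 at day 14, and 0.14 to 0.20 under 2 scalings) and the other readable ACTG2 probe set (0.27) gave no such reversal.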

How the results depend on the processing

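Each group has 1 array, so no replicate was left out, and the main fit already takes the arrays of a day as a pair. Of 306 fitted values of single members under the alternatives, 285 kept their direction and side of the threshold, 9 lost a call and 12 changed direction. Of 255 untested day differences, 21 fell below 2-fold, 5 passed it and 16 changed direction, all of the 16 from differences under 2-fold. These were the day 14 values of MYL9 (up to 0.37), TAGLN on Cfa (0.14 and 0.20), CNN1 (0.15), PDGFRB on Cfa (0.06 and 0.10) and a low TPM2 probe set (0.10 to 0.28), and the day 4 values of ACTG2 on A1_s_at (-0.23 to -0.16) and the same TPM2 probe set (-0.08 in both). The causes were not tested.

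For the average beta-TCP effect (0 called), 3 probe sets were called without the day 4 pair and 108 without the day 14 pair. For the F test over days (290 called) the count was 643 with quantile normalization, 912 with 90th percentile scaling, 2 with a pseudocount of 0.25, 0 with a pseudocount of 4, 0 with no filter, 61 on CfaAffx alone, and 23, 858 and 1880 without the day 4, 7 and 14 pairs. For day 14 minus day 4 (837 called) it was 1431 with quantile normalization, 1869 with 90th percentile scaling, 282 and 16 with pseudocounts of 0.25 and 4, 0 with no filter and 233 on CfaAffx alone. For day 7 minus day 4 (0 called) it was 45 with quantile normalization, 75 with 90th percentile scaling, 55 on Cfa alone and 1880 without the day 14 pair. For day 14 minus day 7 (3 called) it was 15 with quantile normalization, 22 with 90th percentile scaling, 0 with a pseudocount of 4, 0 with no filter, 9 on Cfa alone, 0 on CfaAffx alone, 55 with the pairs kept and 23 without the day 4 pair.

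Of the 3 members called for day 14 minus day 4, 1 was left with a pseudocount of 0.25, and 0 with a pseudocount of 4, with no filter and on CfaAffx alone, where ACTA2 had an adjusted p of 0.0538 (limma). Over 9 settings TAGLN on its Cfa probe set was called in 7 (2.91 to 3.26), ACTG2 in 6 (2.07 to 2.48) and ACTA2 in 5 (1.56 to 2.06). For day 7 minus day 4, 5 members were called without the day 14 pair, against 0. Members at least 2-fold higher at day 4 were 4 with 90th percentile scaling and 4 with a pseudocount of 4, against 7. At day 7, 1 was higher with a pseudocount of 4, against 3, and 1 lower with a pseudocount of 0.25, against 0. At day 14, 2 were higher with 90th percentile scaling or relative to the median of all, against 1, and 2, 3 and 2 lower with 90th percentile scaling, a pseudocount of 4 and quantile normalization, against 5, and 6 with a pseudocount of 0.25.

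The average effect changed direction without the day 14 pair for TAGLN (0.82 and 0.86 on the CfaAffx probe sets) and DES (0.15 on CfaAffx). Without the day 4 pair it did so for TPM2 (-0.39 on the high Cfa probe set and -0.40 on CfaAffx) and PDGFRB (-0.046 on CfaAffx). Without the day 7 pair it did so for ACTG2 (-0.46 on the S1_s_at probe set) and TPM2 (-0.12 on CfaAffx and 0.23 on a low Cfa probe set). The same low TPM2 probe set gave 0.012 with 90th percentile scaling and 0.0028 with a pseudocount of 4, and the other low TPM2 probe set gave 0.14 for day 14 minus day 4 with quantile normalization.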

Other observations

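Of the probe sets assigned to a member together with another gene, 2 were left out of the counts and read after the data were seen. The one assigned to ACTA1 and ACTA2 read 11.6, 27.0 and 15.6 times the median at days 4, 7 and 14 with beta-TCP and 5.35, 13.4 and 12.3 times in controls, so beta-TCP was higher on all 3 days (0.99, 0.96 and 0.32), as on the probe set of ACTA2 alone. The one assigned to MYL9 and LOC491855 read 4.89, 5.12 and 3.21 with beta-TCP and 2.35, 3.77 and 5.83 in controls, with differences of 0.81, 0.36 and -0.70.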
